A study of Homo sapiens with 4 samples.

Results

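The BH3-only genes are the members of the BCL2 family that carry a single region of homology, the BH3 domain, and promote cell death. The 6 genes BAD, BBC3, BCL2L11, BID, BIK and BMF were taken by name from the authors' gene table, a choice made with earlier results of these data known, and they are 6 of its 2864 genes with values. PMAIP1 and HRK, 2 further genes of this kind, were not analysed here. RNA was sequenced from 4 cultures of A375, a human melanoma cell line, to look for factors of the acute response and of lasting resistance to vemurafenib, an inhibitor of the BRAF kinase. A375P was the untreated parental line. A375R was a strain made from A375 by stepwise rising vemurafenib and kept under the drug, with no dose at harvest stated. A375+DMSO and A375+VEM were A375 cells given the solvent DMSO or 2 μM vemurafenib for 48 h. All 4 are labelled wild type and share 1 batch label. Each condition is represented by 1 library. Differences are therefore given without a test and have no check by replicates.

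In the mitochondrial pathway of apoptosis, anti-apoptotic proteins such as BCL2 and BCL-XL hold the effectors BAX and BAK1 in check. BH3-only proteins sense stress, bind the anti-apoptotic proteins and in part the effectors, and so tip the balance towards release of cytochrome c and caspase activation. Many are held back by survival signals: ERK, the kinase at the end of the RAF cascade, marks the BCL2L11 protein (BIM) for degradation, and AKT phosphorylates BAD. BBC3 (PUMA) is a classical target gene of p53, and FOXO factors can transcribe BCL2L11 and BBC3. BID is cleaved by caspases into its active form, BIK resides at the endoplasmic reticulum, and BMF is tied to the cytoskeleton until it is set free. The values here are RNA of whole genes, and neither isoforms nor protein were measured.

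Levels are given as TPM, the authors' reads per gene relative to its length, on a scale common to the libraries, so that genes can be set side by side. Intervals are 95% and exact, and cover counting error only. In A375P the order of TPM was BBC3 at 65.0, BAD at 46.6, BID at 18.1, BIK at 4.29, BCL2L11 at 3.66 and BMF at 1.76, and the intervals of BIK (2.99 to 5.96) and BCL2L11 (3.17 to 4.22) overlapped. In A375R BAD came first at 74.7, before BBC3 at 34.9, BID at 21.9, BIK at 9.35, BMF at 3.49 and BCL2L11 at 3.08, the last pair with overlapping intervals. In A375+DMSO BAD was at 77.5, BBC3 at 31.8 and BID at 20.5, while BCL2L11 at 4.31, BMF at 3.77 and BIK at 3.67 had intervals that overlapped. BMF was thus the lowest or among the 3 lowest of the genes in every library except A375+VEM. There BMF came first at 128, above BAD at 115, BBC3 at 29.1, BCL2L11 at 13.6, BID at 13.0 and BIK at 1.19. The intervals of BMF (125 to 132) and BAD (108 to 122) did not overlap, and those of BCL2L11 and BID did.

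**Figure D1:**
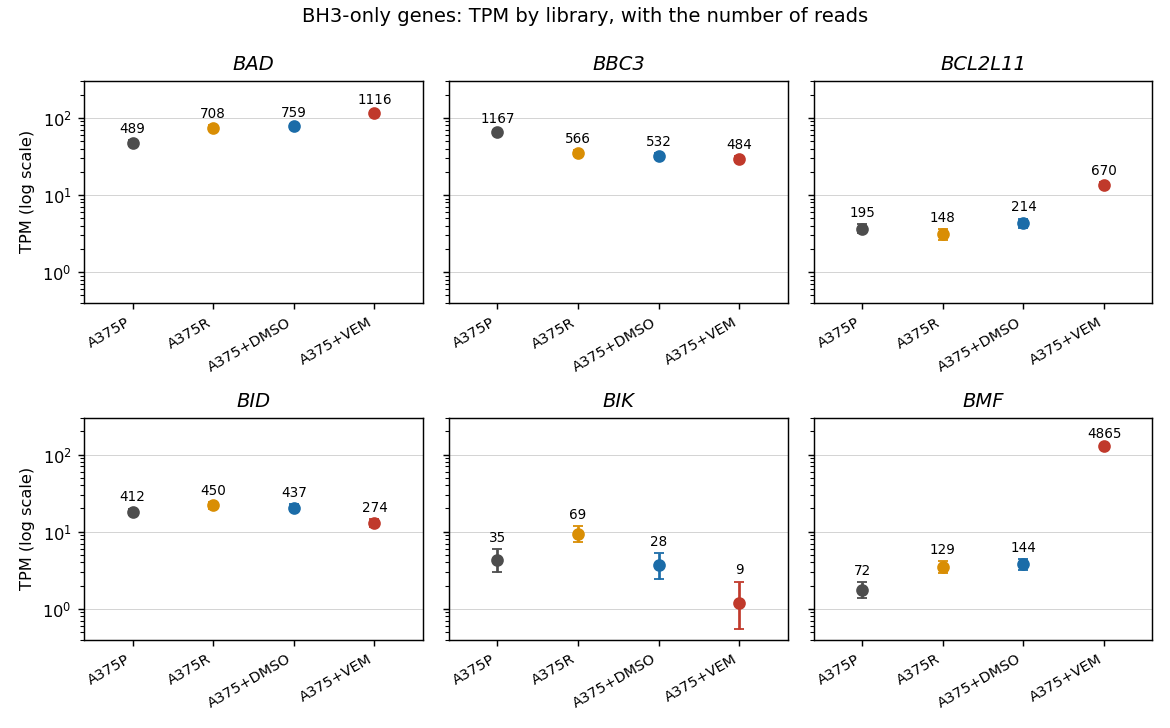
TPM on a log axis of each BH3-only gene in the 4 libraries, 1 point per library, with exact 95% counting intervals and the number of reads above each point. BMF stands at 72 to 144 reads in 3 libraries and at 4865 in A375+VEM, while BIK is lowest there with 9.

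The 6 genes together made up 139 TPM in A375P, 147 in A375R and 142 in A375+DMSO, but 300 in the A375+VEM library. The near equal sums of the first 3 libraries had different make-ups. BBC3 was 46.6% of the sum in A375P, but 23.7% in A375R and 22.4% in A375+DMSO, and BAD went the other way, from 33.4% to 50.7% and 54.8%. In A375+VEM BMF was 42.8% of the sum and BAD 38.3%. Of the 158 TPM by which the sum in A375+VEM exceeded that in A375+DMSO, BMF gave 124, BAD 37.3 and BCL2L11 9.27, and the other 3 genes were lower. Without BMF the ratio of the sums was 1.25, and with it 2.12.

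**Figure D2:**
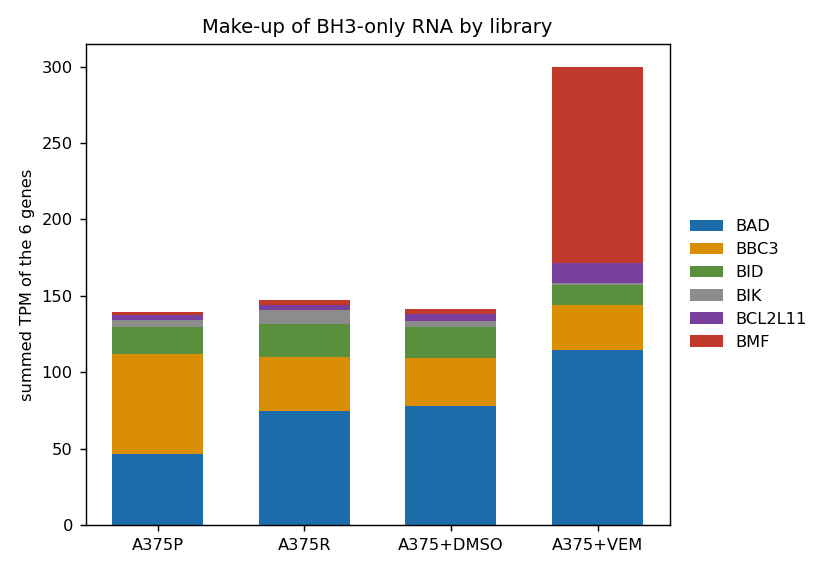
Summed TPM of the 6 BH3-only genes in each library, stacked by gene from 0. The first 3 bars are of like height (139 to 147 TPM) with a larger BBC3 share in A375P, and the A375+VEM bar reaches 300, mainly through BMF.

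The acute pair, A375+VEM against A375+DMSO, asks how the cells respond to the drug within 48 h. BMF and BCL2L11 were higher, BIK and BID were lower, and BAD and BBC3 were within the threshold. A gene was called higher or lower when the ratio of (TPM + 0.1) was past 1.5-fold, provided its TPM reached 1 in either library. By this rule 26.5% of the 1784 genes compared were higher and 19.7% lower, so 2 of 6 higher and 2 of 6 lower are shares not far from those of all genes. The median log2 ratio was 0.22 for the 6 genes and 0.105 for all genes, and scaling the latter to 0 changed no call of the 6 here. In bulk RNA, more RNA per cell and more cells that hold it cannot be told apart.

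BMF is on the minus strand of chromosome 15 from 40380091 to 40401085 (positions as deposited, with the build given as hg19). BMF RNA was counted at 72 reads in A375P and 129 in A375R, beside 144 in A375+DMSO and 4865 in the A375+VEM library. The drug-treated library stood far apart from the other 3. Its TPM was 34.0-fold that of A375+DMSO (95% interval 28.8 to 40.4), a log2 ratio of 5.05 on the (TPM + 0.1) scale and the 3rd highest of 1784. Against A375P it was 72.9-fold (57.8 to 93.4). By TPM it was at rank 1380 of the 1670 genes that reached a TPM of 1 in A375+DMSO and at rank 120 of 1708 in A375+VEM.

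BCL2L11, on the plus strand of chromosome 2 from 111878491 to 111926022, had 195 reads in A375P and 148 in A375R, beside 214 in A375+DMSO and 670 in the A375+VEM library. It too was highest under acute drug, at 13.6 TPM, with the other 3 libraries between 3.08 and 4.31. The ratio to A375+DMSO was 3.15 (2.70 to 3.70) and that to A375P 3.71 (3.16 to 4.37). The intervals of the BMF and BCL2L11 ratios to A375+DMSO were far from overlapping. Its nearest neighbour in the table, ACOXL, lies 2692 bases away on the same strand and had 0 to 15 reads.

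The start regions of these 2 genes are shown because they were the 2 members past the threshold upwards in the acute pair. They are RefSeq windows on GRCh38.p14, another build than that of the table, from 250 bases before to 50 bases after an annotated start, written 5′ to 3′ on the strand of the gene. BMF has 2 such windows and BCL2L11 has 1. Capitals mark matches on either strand to the FOXO core TGTTTAC or to the GC box GGGCGG, which do not overlap each other here.
BMF, chr15:40108830-40109129, minus strand: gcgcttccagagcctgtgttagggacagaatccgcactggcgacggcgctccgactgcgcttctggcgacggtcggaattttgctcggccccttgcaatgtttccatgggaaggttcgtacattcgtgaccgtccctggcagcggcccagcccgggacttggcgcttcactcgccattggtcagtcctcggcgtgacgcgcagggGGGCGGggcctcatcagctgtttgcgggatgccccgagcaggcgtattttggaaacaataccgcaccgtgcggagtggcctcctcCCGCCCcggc
BMF, chr15:40106917-40107216, minus strand: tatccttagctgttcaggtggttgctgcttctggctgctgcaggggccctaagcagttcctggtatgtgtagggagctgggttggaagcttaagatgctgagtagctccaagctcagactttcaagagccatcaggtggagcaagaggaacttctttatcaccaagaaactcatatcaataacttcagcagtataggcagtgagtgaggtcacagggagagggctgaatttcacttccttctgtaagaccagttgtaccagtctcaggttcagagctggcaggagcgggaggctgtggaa
BCL2L11, chr2:111120664-111120963, plus strand: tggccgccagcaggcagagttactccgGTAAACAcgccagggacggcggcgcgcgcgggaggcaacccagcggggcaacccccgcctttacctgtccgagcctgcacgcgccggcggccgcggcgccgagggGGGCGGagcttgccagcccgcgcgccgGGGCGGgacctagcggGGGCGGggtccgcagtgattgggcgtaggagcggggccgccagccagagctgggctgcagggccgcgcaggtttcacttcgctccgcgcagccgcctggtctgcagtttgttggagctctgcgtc

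A search of all 11 windows that matched the members (5 of 6 genes, by gene ID) gave the FOXO core in 1, the E-box CACGTG in 3, the AP-1 motif TGANTCA in 1, the GC box in 8 and the TATA box TATAAA in 0. Of all 35116 windows of the same length, 3.42% hold the FOXO core, 7.26% the E-box, 7.71% the AP-1 motif, 45.0% the GC box and 11.5% the TATA box. The 1 FOXO match is in the BCL2L11 window, whose GC content of 74.7% is above that of 89.7% of windows. Neither BMF window holds it. The E-box matches are in the BBC3 window and in 2 overlapping BID windows. These are matches of letters and not measured binding. The BAD windows also overlap each other, as do several of the BID windows, so the 11 windows are not separate regions.

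BIK, on chromosome 22 from 43506754 to 43525718, went against BMF in A375+VEM, while both were higher in A375R than in A375P. BIK RNA was counted at 35 reads in A375P and 69 in A375R, beside 28 in A375+DMSO and 9 in the A375+VEM library. The A375R library was the highest and the A375+VEM library the lowest. The ratio of A375+VEM to A375+DMSO was 0.324 (0.134 to 0.706), a wide interval since it rests on 9 reads. Against A375P it was 0.278 (0.117 to 0.589).

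BID, on the minus strand of the same chromosome from 18216906 to 18257431, had 412 reads in A375P and 450 in A375R, beside 437 in A375+DMSO and 274 in the A375+VEM library. The 3 libraries other than A375+VEM were within 18.1 to 21.9 TPM. The ratio of A375+VEM to A375+DMSO was 0.631 (0.541 to 0.736), past the threshold, and that to A375P was 0.718 (0.614 to 0.838), which is not.

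BAD, on the minus strand of chromosome 11 from 64037300 to 64052176, had 489 reads in A375P and 708 in A375R, beside 759 in A375+DMSO and 1116 in the A375+VEM library. It was highest under acute drug and lowest in A375P. The ratio of A375+VEM to A375+DMSO was 1.48 (1.35 to 1.63), just under the threshold, with an interval that reaches past it. Against A375P it was 2.46 (2.21 to 2.75). BBC3, on the minus strand of chromosome 19 from 47724079 to 47736023, had 1167 reads in A375P and 566 in A375R, beside 532 in A375+DMSO and 484 in the A375+VEM library. A375P was well above the other 3. The ratio of A375+VEM to A375+DMSO was 0.916, and its interval of 0.808 to 1.04 includes 1. With ratios scaled to a median of 1 it was 0.852 (0.752 to 0.965), so whether the interval includes 1 depends on the scaling.

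The resistant pair, A375R against A375P, asks what differs in cells that grow under the drug. BIK, BMF and BAD were higher in A375R, BBC3 was lower, and BCL2L11 and BID were within the threshold. The ratio was 2.18 for BIK (1.43 to 3.38), 1.98 for BMF (1.48 to 2.68) and 1.60 for BAD (1.43 to 1.80). With all ratios scaled to a median of 1, BAD was just short of the threshold, at a log2 ratio of 0.581. The ratio was 0.537 for BBC3 (0.485 to 0.594) and 1.21 for BID (1.06 to 1.39). For BCL2L11 it was 0.840, and the interval of 0.674 to 1.05 includes 1. Scaled to a median of 1, BCL2L11 was at 0.785 (0.629 to 0.977), while BID was at 1.13 with an interval of 0.986 to 1.29 that then includes 1. Among all 1689 genes compared, 26.8% were higher and 17.5% lower, beside 3 and 1 of the 6. The median log2 ratio was 0.48 for the 6 genes and 0.099 for all.

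Of these 4 differences, 3 were also present between the 2 libraries without vemurafenib. In A375+DMSO against A375P, BMF was 2.14-fold (1.60 to 2.89), BAD 1.66-fold (1.48 to 1.87) and BBC3 0.489-fold (0.440 to 0.542). The other 3 genes were within the threshold, with BIK at 0.857 and an interval from 0.502 to 1.45. Of all 1720 genes in this comparison 26.8% were higher and 18.9% lower, beside 2 and 1 of the 6. The median log2 ratio was 0.21 for the 6 genes and 0.093 for all. This comparison shares A375P with the resistant pair and A375+DMSO with the acute pair, so the sets of ratios are not independent.

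With A375+DMSO as the control of A375R, BIK alone of the 6 was past the threshold. It was 2.55-fold (1.62 to 4.10), a log2 ratio of 1.33 and the 46th highest of 1702 genes. BMF was at 0.925 (0.724 to 1.18), BAD at 0.964 (0.869 to 1.07), BBC3 at 1.10 (0.975 to 1.24) and BID at 1.06 (0.930 to 1.22), each with an interval that includes 1. BCL2L11 was at 0.714 (0.575 to 0.885), lower in A375R but short of the threshold. Of all genes 10.5% were higher and 9.99% lower in this comparison, beside 1 and 0 of the 6. With A375P as the control of A375+VEM, BMF, BCL2L11 and BAD were higher and BBC3 and BIK lower, beside 36.9% and 25.3% of 1782 genes. So BMF, BCL2L11 and BIK were past the threshold in A375+VEM from either control, and BIK was in A375R.

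**Figure D3:**
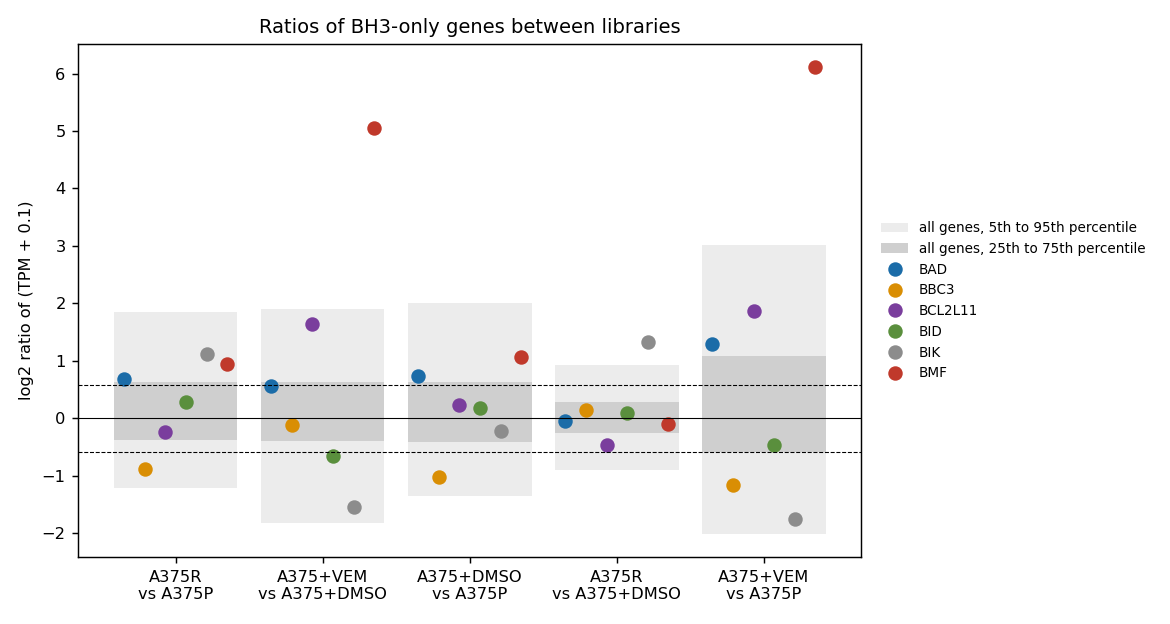
Log2 ratio of (TPM + 0.1) of each BH3-only gene (points) in 5 comparisons of libraries, over the range of all genes compared (light grey, 5th to 95th percentile; dark grey, 25th to 75th), with dashed lines at 1.5-fold. BMF lies at 5.05 and 6.11 in the comparisons of A375+VEM, and in A375R against A375+DMSO BIK at 1.33 is the only point past a dashed line.

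Set side by side, the pairs differed most for BMF, BIK and BCL2L11. On the log2 scale of (TPM + 0.1), BMF was at 0.95 in the resistant pair and at 5.05 in the acute pair, and BCL2L11 at -0.24 and 1.63. BIK was at 1.11 and -1.55, the only member past the threshold in opposite directions. BAD was at 0.68 and 0.57, BBC3 at -0.90 and -0.13, and BID at 0.27 and -0.66. Whether the pairs differ was not tested.

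**Figure D4:**
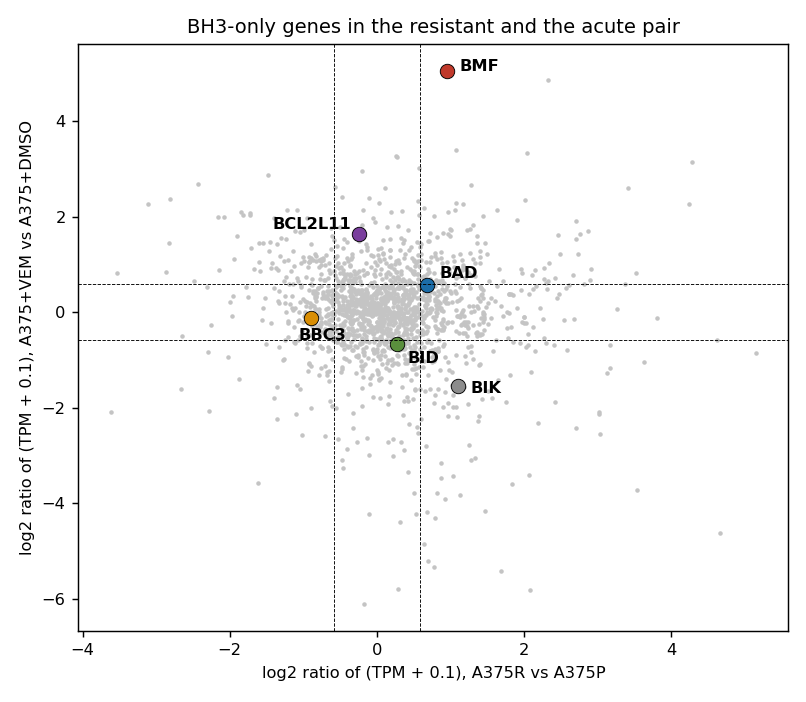
Log2 ratio of (TPM + 0.1) in the acute pair (vertical) against the resistant pair (horizontal) for the 1656 genes compared in both (grey dots), with the 6 BH3-only genes named and dashed lines at 1.5-fold. BMF is near the top of the cloud at 5.05 on the vertical axis, and BIK is in the lower right, high in A375R and low in A375+VEM.

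The members had no common pattern over the 4 libraries. Likeness was measured as the Euclidean distance of log2(TPM + 0.1), centred on each gene's own mean over the 4 libraries, among 1816 other genes. The member nearest to BMF was BCL2L11, at a distance of 3.21, while the nearest of all genes were ADAMTS15 at 1.07 and ACSBG1 at 1.15. ADAMTS15, a secreted metalloproteinase, had 19 reads in A375P, 104 in A375R, 102 under DMSO and 3041 under vemurafenib. ACSBG1, an acyl-CoA synthetase, had 1, 4, 11 and 562. Nearest to BIK were B3GNT5, a glycosyltransferase, at 0.203 and ADTRP at 0.205. B3GNT5 had 270, 435, 200 and 63 reads in the same order, so it too was highest in A375R and lowest in A375+VEM. Nearest to BCL2L11 were the lncRNA ARSD-AS1 at 0.217, which had 14 to 76 reads, and C9orf116 at 0.244. BAD lay nearest to ACAP3 (0.063) and ATP8B2 (0.066), BBC3 to AKAP17A and BMPR1B (both 0.106), and BID to the adenylyl cyclase ADCY3 (0.085) and the actin gene ACTB (0.087). The genes searched had to reach a TPM of 1 in at least 1 library. ACSBG1 did so only in A375+VEM, ADTRP only in A375R and BMPR1B only in A375P, so these matches cannot serve as support. With 4 libraries many genes have a close pattern by construction, and the distances are a description.

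The anti-apoptotic partners of the BH3-only proteins include BCL2, BCL2A1, BCL2L1 (BCL-XL), BCL2L2 and BCL2L10, all 5 in the table, of which 4 reached a TPM of 1 in either library of a pair. MCL1 was not analysed here. In the acute pair BCL2 (189 reads in A375+DMSO and 27 in the A375+VEM library) and BCL2L1 (2834 and 1126) were lower and BCL2A1 (32 and 61) was higher. With A375P as the control of A375+VEM, BCL2 and BCL2L1 were lower too, at log2 ratios of -3.87 and -1.84. BCL2A1 was within the threshold there, at 0.085. BCL2 reached a TPM of 1 in A375+DMSO but not in the A375+VEM library. The median log2 ratio of the 4 was -0.62 in the acute and -0.11 in the resistant pair. Over all 5 without a minimum TPM it was 0.08 and -0.16, which adds BCL2L10. BCL2L10 had 7 reads in A375P and 1 in A375R, beside 0 in A375+DMSO and 4 in the A375+VEM library. The summed TPM of the 5 genes was 229 in A375P and 240 in A375R, beside 153 in A375+DMSO and 93.6 in the A375+VEM library. The BH3-only sum divided by this sum was 0.609, 0.613, 0.924 and 3.20 in that order, a ratio of RNA levels. BMF weighs heavily in the last value: without it the BH3-only sum was 138, 144, 138 and 172 TPM. Both sums are partial, since PMAIP1, HRK and MCL1 are not in them. In A375R against A375P, BCL2A1 was higher (62 and 274 reads in A375P and A375R) and BCL2 lower (504 and 223). BCL2 was also lower in A375+DMSO against A375P, at a log2 ratio of -1.29. In A375R against A375+DMSO, BCL2 was within the threshold at 0.28 and BCL2A1 was higher at 3.1.

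Of the effectors BAX, BAK1 and BOK, BAX and BAK1 were lower in A375R than in A375P, at log2 ratios of -0.90 and -0.94. They were also lower in A375+DMSO, at -1.02 and -1.14, as BBC3 was at -1.03. In the acute pair BAX was higher, at 0.59, but at 0.49, under the threshold, once ratios were scaled to a median of 1. The medians of the 3 were -0.90 in the resistant and -0.23 in the acute pair. Among 10 BH3-like and other BCL2-related genes, 8 were compared in the acute pair, with BNIP1 and BCL2L12 lower. With A375P as the control of A375+VEM, BNIP1 was lower too, at -0.94, while BCL2L12 was within the threshold at -0.39. BNIPL was past the threshold upwards in the acute pair and downwards in the resistant pair. With 13 to 29 reads BNIPL reached a TPM of 1 only in the higher library of each pair, and it cannot serve as support. In the resistant pair BNIP3L was higher, at 0.62. Scaling to a median of 1 put BNIP3L within the threshold, at 0.52, and BNIP2 past it downwards, at -0.62. BNIP3L was also higher in A375+DMSO against A375P, at 0.64, and was at -0.02 in A375R against A375+DMSO. The median of the 8 genes compared was 0.04 in the acute and 0.11 in the resistant pair. Over all 10 genes without a minimum TPM it was 0.25 and 0.21, which adds BCL2L14 and BCL2L15 with at most 9 reads per library.

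Downstream of the mitochondria, 7 of 13 listed genes are in the table. In the acute pair BIRC5 (survivin), an inhibitor of apoptosis that also acts in cell division, had 1398 reads in A375+DMSO and 18 in the A375+VEM library. BIRC7, with 9 and 18 reads, reached a TPM of 1 only in A375+VEM, so its place past the threshold upwards cannot serve as support. With ratios scaled to a median of 1 BIRC2 was also lower, barely past the threshold at -0.585, against -0.48 unscaled. In the resistant pair BIRC3 alone was past the threshold, upwards. The median was 0.41 in the acute pair, where all 7 were compared. In the resistant pair it was -0.02 for the 6 compared. Without a minimum TPM it was -0.18 there, which adds BIRC7 with 3 reads in A375P and 1 in A375R. Of 12 regulators of BH3-only proteins 10 are in the table. In the acute pair ATF4, the transcription factor of the amino acid and stress response, was lower at -0.97, as was the co-chaperone BAG3 at -0.81. AKT1, AKT2, ARAF and BRAF lay between -0.05 and 0.24 there. The median of the 10 was 0.05 in the acute and 0.11 in the resistant pair.

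BBC3 was set beside 9 other genes known to respond to p53, of which APAF1, ATF3 and BAX are also in the lists above. In A375R against A375P, 5 of the 9 were lower (AEN, BAX, BTG2, ABHD4 and ACER2) and 0 higher, beside 17.5% lower and 26.8% higher of all genes, with a median log2 ratio of -0.65. The genes of this list were chosen with earlier results of these data known. In A375+DMSO against A375P 6 were lower and 0 higher, beside 18.9% and 26.8% of all genes, with a median of -0.81, and ATF3 was lower too, at -0.66, once ratios were scaled to a median of 1. In A375R against A375+DMSO, 3 of the 9 were higher (AEN, ATF3 and ACER2) and 0 lower, with a median of 0.37. Of all genes 10.5% were higher and 9.99% lower in that comparison. The summed TPM of the 9 genes was 840 in A375P and 458 in A375R, beside 329 in A375+DMSO and 396 in the A375+VEM library. The sum in A375P was mainly BAX (282), AEN (262) and BTG2 (140), and not all 9 genes were highest there. APAF1 was lowest there at 8.75 TPM, ATF3 was higher in A375R (68.2 against 63.0) and ABHD4 in A375+VEM (30.1 against 26.5). A part of p53 in the BBC3 values was not tested. In the acute pair 2 of the 9 were higher and 2 lower, beside 26.5% and 19.7% of all genes, with a median of 0.26. BAX, among the higher, was under the threshold at 0.49 once ratios were scaled to a median of 1. Of 2 genes that FOXO factors can transcribe, BCL6 had 154 reads in A375P and 361 in A375R, beside 429 in A375+DMSO and 1288 in the A375+VEM library. It was highest in A375+VEM, as BMF, BCL2L11 and BAD were. The other, BTG1, was within the threshold in both pairs and had its lowest TPM in A375+VEM, at 95.6. A part of FOXO factors in these values was not tested.

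The table covers gene names from its start to CAC and holds 8.48% to 8.94% of the TPM of the libraries, with 1891215 to 2054277 reads. Of 11 markers of the melanocyte lineage, 4 are in it (BCAN, BACE2, CA14 and ASAH1), and their summed TPM ran from 60.5 in A375+DMSO to 116 in A375P. The defining markers MLANA, PMEL, TYR, DCT, MITF, SOX10 and S100B were not analysed here. Of 10 markers of macrophages, B cells, liver and muscle, 2 reached a TPM of 1 in each library, ALB at 46.4 to 64.5 and APOA1 at 7.34 to 10.0, and C1QA was at 0 in all 4. The summed TPM of these 10 was 55.4 in A375+VEM and 74.9 in A375P, and their part in the results was not tested.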

How the data were processed

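A single RNA library was sequenced for each of 4 cultures (A375P, A375R, A375+DMSO, A375+VEM), which were assigned from the sample labels. The authors deposited a table with whole-number read counts and TPM per gene and library. The TPM of the authors is proportional to reads per base of gene length, by 1 factor per library. The submitters' processing notes name hg19, HISAT2, TopHat2, Bowtie2 and HISAT, without role or order, and the counting program and its use of strand are not given in the sources used here. The last, incomplete row was left out. The counts are of part of each library, so their sums are not its depth.

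Libraries were compared by the ratio of (TPM + 0.1), a scale that understates the change of low genes, for genes whose TPM reached 1 in either library, and 1.5-fold was the threshold. Folds and ratios not given as log2 are of TPM without the 0.1. Intervals of ratios are exact Clopper-Pearson intervals at 95% on the reads of 2 libraries, and those of levels exact Poisson intervals. They compare libraries and not conditions. No test was made, since no condition has replicates. For each member the 2 genes nearest in pattern were named. A result for 1 listed regulator is not reported here. The members and gene lists were chosen with earlier results of these data known. The ratio step was tested on simulated data. Alternatives were other pseudocounts, filters, scaling, a 2-fold threshold and the other control. Computations used numpy 2.4.6, pandas 2.3.3, scipy 1.17.1 and matplotlib 3.10.9 under Python 3.11.15.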

Additional observations from a re-analysis of the deposited data

Results flagged for a closer look

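BIK and BID were higher in A375R than in A375P and lower in A375+VEM than in A375+DMSO, with counting intervals of the ratio that leave out 1 in both pairs. BID was within 1.5-fold in the resistant pair, and with ratios scaled to a median of 1 its interval there, 0.986 to 1.29, includes 1. The log2 ratios of (TPM + 0.1) were 1.11 and -1.55 for BIK and 0.27 and -0.66 for BID. With 1 library per condition, this difference between pairs was not tested. BIK rests on 9 to 69 reads per library. With A375+DMSO as the control, BIK in A375R was at 1.33 and BID at 0.09.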

How the results depend on the processing

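The counts of the 6 genes past 1.5-fold moved as follows. At a threshold of 2-fold, stricter by construction, 1 was higher and 0 lower in A375R against A375P, 1 was lower in A375+VEM against A375+DMSO and 1 was higher in A375+DMSO against A375P. At a TPM of at least 5, which leaves out BIK in the acute pair and BMF between the controls, these last 2 counts were also 1 and 1. With A375+DMSO as the control of A375R, 1 was higher and 0 lower, and the log2 ratios changed sign for BAD (-0.054), BBC3 (0.14) and BMF (-0.11). The cause was not tested. The other 32 of 40 counts stayed within 1.5 times, among them 2 higher in A375R against A375P when ratios were scaled to a median of 1. Under pseudocounts of 1 and 0.01 and scaling to a median ratio of 1, 53 of 54 log2 ratios stayed within their counting interval. The exception was BMF in the acute pair, at 4.76 with a pseudocount of 1. For the lists of other apoptosis genes, medians without a minimum TPM were added after seeing the data, and that of the anti-apoptotic genes in the acute pair then changed sign, from -0.62 to 0.08, since the filter leaves out 1 of the 5 genes. No paired analysis was possible because there is 1 library per condition, and for the same reason no library could be left out. The 9 reads of BIK in A375+VEM limit what can be seen for that gene.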
